A study of Saccharomyces cerevisiae with 12 samples.

Results

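Transcripts of 10 nitrogen genes of the yeast Saccharomyces cerevisiae were followed: the ammonium permeases MEP1, MEP2 and MEP3, the amino acid permease GAP1, the peptide transporter PTR2, the allantoin and allantoate permeases DAL4 and DAL5, and the GATA-type transcription factors GLN3, GAT1 and DAL80. They were taken by gene symbol from a deposited RNA-seq table of 7126 genes, which held all 10. The table covers 12 libraries in 6 genotypes of strain background CEN.PK with 2 libraries each: the double mutants cho2set2 and opi1set2, the single mutants set2, cho2 and opi1, and WT. All 6 genotypes had grown to log phase in rich YPL medium, were washed, and were harvested after 1 h in minimal SL medium, so every comparison is between genotypes after the same switch. SET2 encodes the histone H3 lysine 36 methyltransferase, CHO2 an enzyme of phosphatidylcholine synthesis that methylates phosphatidylethanolamine, and OPI1 a repressor of phospholipid synthesis genes.

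Nitrogen catabolite repression keeps transporters and enzymes for poor nitrogen sources low while good sources are present. Under good supply TORC1 and Ure2 hold the GATA activators Gln3 and Gat1 in the cytoplasm, and under poor supply these enter the nucleus and bind GATA core sites in promoters, where the GATA repressor Dal80 competes with them. PTR2 is also controlled by the SPS amino acid sensor at the plasma membrane, through Stp1 and Stp2, and by the repressor Cup9.

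The GATAAG core, or its reverse CTTATC, was looked for on both strands of the 300 bases before each start codon in the RefSeq S288C genome (build R64, the coordinates of sacCer3). The CEN.PK sequence may differ from it. The word occurred in 7 of the 10 genes, against 14.7% of 5987 yeast promoters of the same length, and at least 2 times in 4 of them (MEP3, GAP1, GAT1 and DAL80), against 1.64%. No GATAAG was in the window of MEP1, PTR2 or GLN3. The shorter word GATAA, which every GATAAG contains, was in 9 of the 10, against 61.6% of promoters. The word TGACTC, core of the sites of the amino acid synthesis activator Gcn4, was in 1 (GLN3), against 7.75%. All GATAAG matches lay between 171 and 293 bases before the start codon. The stretch from 300 to 151 bases before the start codon is printed for PTR2, MEP3 and GAP1, whose transcripts carry the main differences described here. It is also printed for DAL80, whose low counts are only described, for MEP2 as the ammonium permease without a called difference, and for GAT1, whose words are the most numerous. It is written 5′ to 3′ on the gene's strand, with GATAAG and CTTATC in capitals.
PTR2 (chrXI:615430-615579, plus strand): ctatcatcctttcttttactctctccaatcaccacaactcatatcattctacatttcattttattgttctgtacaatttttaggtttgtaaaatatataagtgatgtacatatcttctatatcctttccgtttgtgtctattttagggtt
MEP3 (chrXVI:812604-812753, minus strand): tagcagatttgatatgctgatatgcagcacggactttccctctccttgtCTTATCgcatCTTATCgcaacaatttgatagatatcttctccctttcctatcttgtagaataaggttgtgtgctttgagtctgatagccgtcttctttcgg
MEP2 (chrXIV:357153-357302, plus strand): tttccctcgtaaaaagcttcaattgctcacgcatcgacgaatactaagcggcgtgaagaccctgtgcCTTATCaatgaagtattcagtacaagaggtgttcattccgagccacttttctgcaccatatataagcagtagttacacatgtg
GAP1 (chrXI:514763-514912, plus strand): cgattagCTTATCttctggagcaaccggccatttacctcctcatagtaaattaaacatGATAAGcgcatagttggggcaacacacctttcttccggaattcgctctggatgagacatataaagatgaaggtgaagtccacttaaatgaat
DAL80 (chrXI:506598-506747, plus strand): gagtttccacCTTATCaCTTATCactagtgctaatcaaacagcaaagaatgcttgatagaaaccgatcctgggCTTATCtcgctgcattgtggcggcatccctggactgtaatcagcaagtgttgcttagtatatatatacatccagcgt
GAT1 (chrVI:95666-95815, plus strand): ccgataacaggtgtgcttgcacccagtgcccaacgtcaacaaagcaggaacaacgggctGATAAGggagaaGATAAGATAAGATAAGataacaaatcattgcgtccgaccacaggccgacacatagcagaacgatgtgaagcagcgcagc

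MEP3 carried 2 CTTATC words 4 bases apart, while MEP2 carried 1. DAL80 also had 2 words 1 base apart and another nearer the gene, and in GAT1 the last 3 of 4 words ran into one another, each sharing a G with the next. In this stretch of 150 bases GATAAG was in 7.38% of promoters, and 2 or more in 0.518%. The stretch holds every GATAAG match of the genes followed here, while matches elsewhere in other promoters are left out. These shares therefore only describe the stretch and are not read against the matches of these genes. A word match is a description of the letters and not a bound site.

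**Figure D1:**
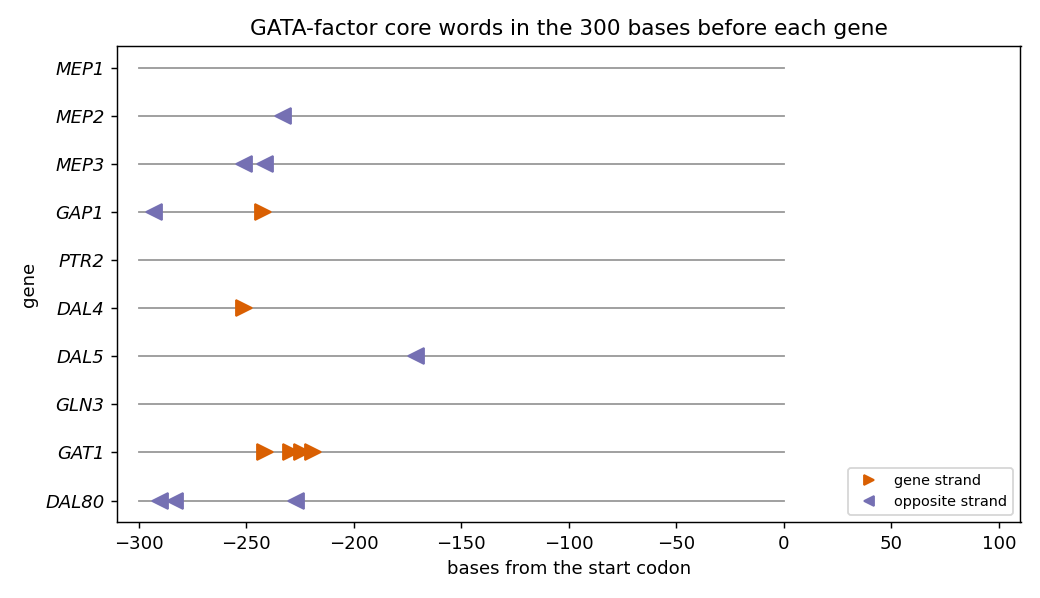
Positions of GATAAG words in the 300 bases before the start codon of each gene; the horizontal axis is the distance from the start codon in bases, each row is a gene, and right- and left-pointing markers are words on the gene's strand and on the opposite strand. GAT1 has 4 words, DAL80 has 3, MEP3 and GAP1 have 2, and MEP1, PTR2 and GLN3 have none.

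The libraries held between 7383001 and 9461609 counts each, spread over 6508 to 6570 detected genes. SET2 was at 0 counts in both opi1set2 and both set2 libraries, against 149 to 239 in the 6 libraries of genotypes that keep SET2. In cho2set2 SET2 had 0 counts in replicate 2 but 50 in the library labelled cho2set2 replicate 1, so the label of that library goes against its SET2 count. Changes and counts of calls with cho2set2 are also given without it. CHO2 had 2 and 4 counts in cho2set2 and 10 and 13 in cho2, against 3305 and 3320 in WT. OPI1 had 0 and 1 in opi1set2 and 0 and 0 in opi1, against 980 and 1227 in WT. Levels of a gene are given in CPM (counts scaled to a common library size with TMM factors) and levels between genes in the deposited FPKM (per kilobase of gene and per library size). A gene was called when the adjusted p of edgeR's quasi-likelihood test, over 6580 genes, was under 0.05. Separate cultures behind the paired libraries of a genotype are not stated in the labels. P-values therefore measure only the spread between these samples, and less RNA per cell cannot be told apart from fewer cells with the RNA.

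Per length, MEP1 and GAP1 were the most abundant of the 10, with mean FPKM over the 12 libraries of 69.7 and 64.2, above 64.9% and 62.4% of tested genes. GLN3 (23.7), MEP3 (19.3), MEP2 (17.3), DAL5 (17.0), GAT1 (11.9) and DAL4 (10.7) followed in mean FPKM. PTR2 stood at 6.77 FPKM, above 10.9% of tested genes, and DAL80 at 0.904 FPKM, above 2.45%. Across libraries PTR2 spanned 10.5-fold in CPM, MEP3 3.74-fold and GAP1 3.22-fold, while MEP2 spanned 1.57-fold.

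**Figure D2:**
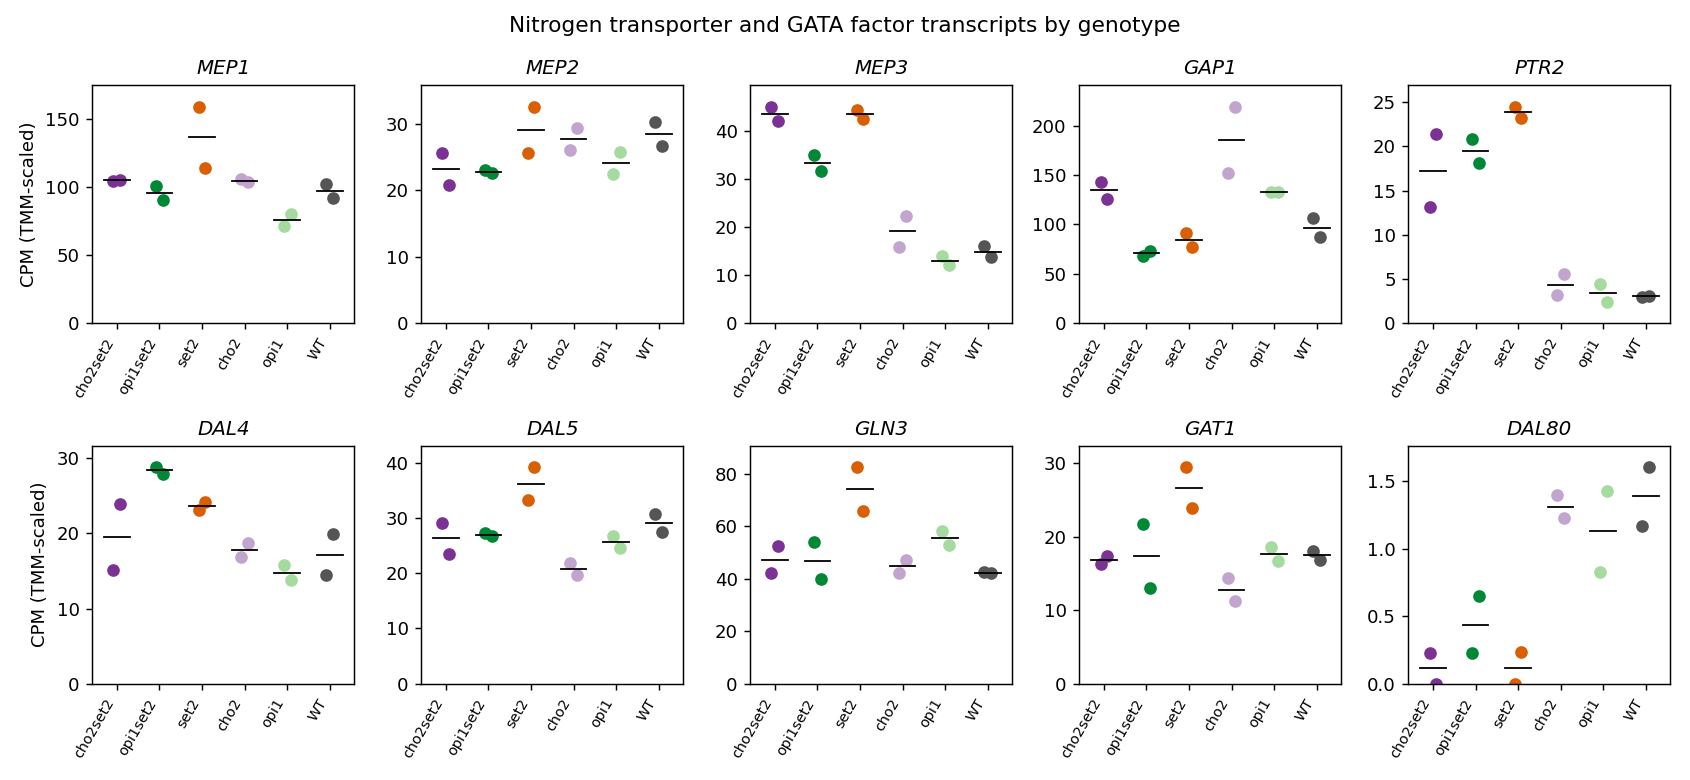
Level of each of the 10 transcripts in TMM-scaled CPM (vertical axes, each from 0) by genotype; points are the 2 libraries of a genotype and the black line is their mean. PTR2 and MEP3 are higher in all 6 libraries labelled as SET2 deletions than in the other 6, DAL80 is lower (with or without the library labelled cho2set2 replicate 1, which held SET2 counts), and GAP1 is highest in cho2. The share of all genes set apart in this way was not counted.

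With loss of SET2, PTR2 and MEP3 were called higher in all 3 genetic backgrounds, as were 555 of all tested genes (8.43%), or 556 (8.45%) without the library labelled cho2set2 replicate 1. In set2 against WT, 4 of the 10 were called higher (PTR2, MEP3, GLN3 and MEP1), against 18.5% of all genes, and 1 lower (DAL80), against 15.9%. Their median log2 change was 0.48, and that of all genes -0.01. In cho2set2 against cho2, 2 were called higher, against 11.3% of all genes, and 1 lower, against 5.58%, with medians of 0.11 for the 10 and 0.00 for all. Without the library labelled cho2set2 replicate 1 these were 2 higher, against 10.9%, and 1 lower, against 4.89%, with a median of 0.20 for the 10. In opi1set2 against opi1, 3 were called higher, against 23.5%, and 1 lower, against 20.8%, with medians of 0.03 and 0.01. DAL80 was the gene called lower in set2 against WT and in cho2set2 against cho2. It passed the filter on low values only through cho2, opi1 and WT, where it is high, so its calls are a description and are not read against these shares.

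PTR2 (YKR093W, chrXI:615730-617535, plus strand) imports di- and tripeptides. It stood at 13.1 and 21.4 CPM in cho2set2, 20.8 and 18.1 in opi1set2, 24.5 and 23.2 in set2, 3.12 and 5.51 in cho2, 4.42 and 2.34 in opi1, and 2.93 and 3.10 in WT. Every library labelled as a SET2 deletion was above every library of the other 3 genotypes, and without the library labelled cho2set2 replicate 1 the other 5 ran from 18.1 to 24.5. The share of all tested genes set apart in this way was not counted, here or for MEP3 and DAL80. Nor was it counted where libraries of a genotype are given below as the highest or lowest, as for MEP1, GLN3, GAT1, GAP1, DAL4 and DAL5. The log2 change was 2.98 ± 0.34 (SE; adjusted p = 1.83e-05) in set2 against WT, a 7.88-fold difference. It was 2.00 ± 0.33 (adjusted p = 0.000598) in cho2set2 against cho2, and leaving out the library labelled cho2set2 replicate 1 gave 2.32 (adjusted p = 0.000402). It was 2.53 ± 0.34 (adjusted p = 4.20e-05) in opi1set2 against opi1. All 3 calls held with each of the 12 libraries left out in turn. Between the backgrounds the log2 change with SET2 loss differed by -0.97 ± 0.48 (adjusted p = 0.408; -0.66 when the library labelled cho2set2 replicate 1 was left out) for cho2 minus WT and by -0.45 ± 0.49 (adjusted p = 0.610) for opi1 minus WT, neither past the threshold.

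MEP3 (YPR138C, chrXVI:810984-812453, minus strand) encodes the low-affinity ammonium permease. Its CPM was 45.2 and 42.3 in cho2set2, 35.0 and 31.7 in opi1set2, 44.4 and 42.7 in set2, 15.9 and 22.4 in cho2, 13.9 and 12.1 in opi1, and 16.0 and 13.7 in WT. Again all 6 libraries labelled as SET2 deletions were above the other 6, as were the 5 without the library labelled cho2set2 replicate 1 (31.7 to 44.4), and cho2set2 and set2 overlapped as the highest pair. The log2 change was 1.55 ± 0.18 (adjusted p = 2.68e-05) in set2 against WT, a 2.93-fold difference. It was 1.19 ± 0.18 (adjusted p = 0.000335) in cho2set2 against cho2, and leaving out the library labelled cho2set2 replicate 1 gave 1.14 (adjusted p = 0.00279). In opi1set2 against opi1 it was 1.36 ± 0.19 (adjusted p = 5.85e-05). These 3 calls also held with each library left out in turn.

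MEP1 (YGR121C, chrVII:731449-732927, minus strand), a permease of higher affinity than Mep3, had 105 and 105 CPM in cho2set2, 100.4 and 90.3 in opi1set2, 159 and 114 in set2, 106 and 104 in cho2, 71.1 and 80.5 in opi1, and 102 and 92.2 in WT. Both set2 libraries were the highest of the 12 and were also far apart, and both opi1 libraries were the lowest. The log2 change of 0.49 ± 0.15 in set2 against WT passed (adjusted p = 0.0183), but it was 0.23 (adjusted p = 0.304) without set2 replicate 1 and 0.42 (adjusted p = 0.123) without WT replicate 2. The change was 0.00 ± 0.15 in cho2set2 against cho2 (adjusted p = 1.00), and 0.00 also when the library labelled cho2set2 replicate 1 was left out. It was 0.33 ± 0.15 in opi1set2 against opi1 (adjusted p = 0.0891). That change passed with limma on log2(FPKM + 1) (0.52, adjusted p = 0.0154), where the median of all genes was also shifted upwards. With edgeR it passed when either set2 library was left out (0.33 in both fits).

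MEP2 (YNL142W, chrXIV:357453-358952, plus strand) encodes the high-affinity ammonium permease, which also acts as an ammonium sensor. It ran from 20.7 to 32.6 CPM with a median of 25.7, and most neighbouring genotypes in the order of its means overlapped. No comparison called it in the fit of all libraries, and its log2 changes with SET2 loss were 0.03 ± 0.18 in set2 against WT, -0.25 ± 0.18 in cho2set2 against cho2 (-0.42 when the library labelled cho2set2 replicate 1 was left out), and -0.08 ± 0.19 in opi1set2 against opi1.

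The order of the 2 minor permeases differed by SET2 genotype when set per length. The ratio of MEP3 to MEP2 FPKM was 1.34 to 2.08 in the 6 libraries labelled as SET2 deletions, all above 1, against 0.479 to 0.778 in the other 6, all below 1. The library labelled cho2set2 replicate 1 stood at 1.80, inside the range of the other 5. MEP3 made up 19.5% to 25.9% of the summed FPKM of the 3 permeases in the libraries labelled as SET2 deletions (19.5% to 25.3% without that one) and 10.3% to 14.5% in the others. MEP1 made up 59.7% to 71.8% of that sum across all libraries. The coding sequences of MEP1 and MEP3 are 71.9% identical, and no pair of the 3 shares a run of 50 bases.

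**Figure D3:**
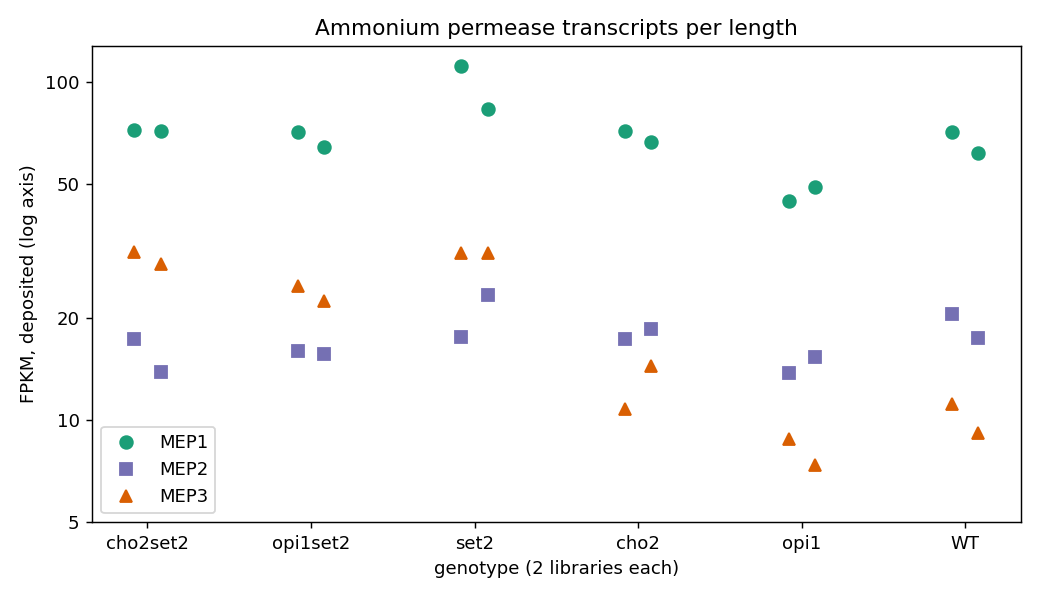
Deposited FPKM of the 3 ammonium permease genes (log vertical axis) by genotype, with 2 libraries per genotype. MEP3 lies above MEP2 in all 6 libraries of cho2set2, opi1set2 and set2 and below it in all 6 libraries of cho2, opi1 and WT, while MEP1 is above both in each library.

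DAL80 (YKR034W, chrXI:506898-507707, plus strand) encodes the GATA repressor, which is itself under nitrogen catabolite repression. Its raw counts were 2 and 0 in cho2set2, 2 and 5 in opi1set2, 0 and 2 in set2, 13 and 10 in cho2, 6 and 11 in opi1, and 10 and 15 in WT. All 6 libraries labelled as SET2 deletions, the one labelled cho2set2 replicate 1 among them, had fewer counts than any of the other 6, and a handful of reads decides each value. With library size taken into account, the count was lower in set2, with a ratio of WT over set2 of 11.9 (95% counting interval 2.98 to 104, counting error only). The edgeR fit gave that difference an adjusted p of 0.0131, for a gene that entered the test through the groups where it is high, and the p was 0.123 without set2 replicate 1 and 0.0737 without WT replicate 2. The ratio of cho2 over cho2set2 was 10.9 (2.69 to 95.2; adjusted p = 0.0319). With the library labelled cho2set2 replicate 1 left out, the remaining cho2set2 library had 0 counts, and taken at 3 counts it was at least 3.33-fold lower than cho2. A single library at 0 has no spread of its own, so no p is given there. The adjusted p of cho2set2 against cho2 missed the threshold when cho2 replicate 1 (0.126), cho2 replicate 2 (0.0827) or cho2set2 replicate 2 (0.207) was dropped. The ratio of opi1 over opi1set2 was 2.68 (1.06 to 7.64), and that difference was not called (adjusted p = 0.184). DAL80 overlaps YKR033C on the opposite strand over 407 bases, 50.2% of its length. YKR033C had 0 to 3 counts per library, and the strand setting of the counting is not given in the sources used here.

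GLN3 (YER040W, chrV:229795-231987, plus strand), the activator, had 42.1 and 52.4 CPM in cho2set2, 54.0 and 39.9 in opi1set2, 82.5 and 66.0 in set2, 42.2 and 47.2 in cho2, 58.4 and 53.0 in opi1, and 42.5 and 42.1 in WT. Both set2 libraries were above every other library, and the share of all genes with that order was not counted. GLN3 was higher in set2 than in WT by a log2 change of 0.81 ± 0.17 (adjusted p = 0.00203), a call that held with each library left out. Its log2 change was 0.08 ± 0.17 in cho2set2 against cho2 (adjusted p = 0.812; 0.23 when the library labelled cho2set2 replicate 1 was left out) and -0.24 ± 0.17 in opi1set2 against opi1 (adjusted p = 0.271). The change with SET2 loss in the opi1 background minus that in the OPI1 background was -1.06 ± 0.24 (edgeR, adjusted p = 0.0267). For that term 360 of all 6580 genes were called in either direction and 2.63% were called lower. With 10 genes, 1 call is near the share in either direction, and GLN3 was the only one of the 10 called. This call was lost in 5 of the 12 fits with a library left out: without WT replicate 1 (adjusted p = 0.0893), set2 replicate 1 (0.129), opi1 replicate 1 (0.0953), opi1 replicate 2 (0.0780) and opi1set2 replicate 2 (0.0746). For the corresponding term with CHO2, edgeR called 0 of the 10, against 0.912% of all genes. DESeq2 and limma also called 0, and 2 of the 10 had an unadjusted p under 0.05 with each tool. Without the library labelled cho2set2 replicate 1 edgeR also called 0 of the 10, with 1 at an unadjusted p under 0.05.

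GAT1 (YFL021W, chrVI:95966-97498, plus strand), the second activator and itself a target of GATA factors, had 16.3 and 17.3 CPM in cho2set2, 21.7 and 13.1 in opi1set2, 29.4 and 23.9 in set2, 14.3 and 11.3 in cho2, 18.6 and 16.6 in opi1, and 18.0 and 16.9 in WT. The set2 libraries were again the highest of the 12, and the share of all genes with that order was not counted. The log2 change in set2 against WT was 0.61 ± 0.23, not called (adjusted p = 0.0525), though it passed without opi1set2 replicate 1 (0.0181) or replicate 2 (0.0174) and with the replicate number as a block (0.0403). GAT1 overlaps YFL021C-A on the opposite strand over 650 bases, 42.4% of its length, with 3 to 22 counts for that gene per library.

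GAP1 (YKR039W, chrXI:515063-516871, plus strand), the general amino acid permease of poor nitrogen supply, was not called higher with SET2 loss in any background. Its CPM was 143 and 126 in cho2set2, 68.1 and 73.1 in opi1set2, 91.0 and 77.0 in set2, 152 and 219 in cho2, 133 and 132 in opi1, and 106 and 87.3 in WT. The 2 cho2 libraries were the highest and the 2 opi1set2 libraries the lowest. GAP1 was higher in cho2 than in WT by a log2 change of 0.94 ± 0.17 (adjusted p = 0.00512), and it was the only one of the 10 called in that comparison, against 1.72% of all genes in either direction and 0.243% higher. That call was lost without cho2 replicate 2 (0.65, adjusted p = 0.127) and without WT replicate 2 (0.80, adjusted p = 0.0846). With SET2 loss it fell by 0.91 ± 0.17 on the log2 scale in opi1set2 against opi1 (adjusted p = 0.000564), a call that held with each library left out. The change was -0.20 ± 0.17 in set2 against WT (adjusted p = 0.378) and -0.46 ± 0.16 in cho2set2 against cho2 (adjusted p = 0.0672; -0.56 when the library labelled cho2set2 replicate 1 was left out). The value in cho2set2 against cho2 turned on the cho2 libraries, at -0.70 (adjusted p = 0.0164) without cho2 replicate 1 and -0.18 (adjusted p = 0.598) without cho2 replicate 2. It also passed with DESeq2 (-0.48, adjusted p = 0.0446) and with edgeR when either opi1set2 library was left out (-0.46 in both fits).

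DAL4 (YIR028W, chrIX:408468-410375, plus strand), the allantoin permease, had 15.2 and 23.9 CPM in cho2set2, 28.8 and 28.0 in opi1set2, 23.1 and 24.2 in set2, 16.8 and 18.7 in cho2, 15.7 and 13.8 in opi1, and 14.4 and 19.9 in WT. The opi1set2 libraries were the highest of the 12 and the opi1 libraries were among the lowest. DAL4 was higher in opi1set2 than in opi1 by a log2 change of 0.94 ± 0.23 (adjusted p = 0.00375), which held with each library left out. The changes of 0.46 ± 0.22 in set2 against WT (adjusted p = 0.127) and 0.13 ± 0.23 in cho2set2 against cho2 (adjusted p = 0.752; 0.43 when the library labelled cho2set2 replicate 1 was left out) were not called. DAL5 (YJR152W, chrX:719666-721297, plus strand), which carries allantoate and some dipeptides, ran from 19.7 to 39.2 CPM, highest in set2 at 33.2 and 39.2 and lowest in cho2 at 21.9 and 19.7. It was called in no comparison.

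**Figure D4:**
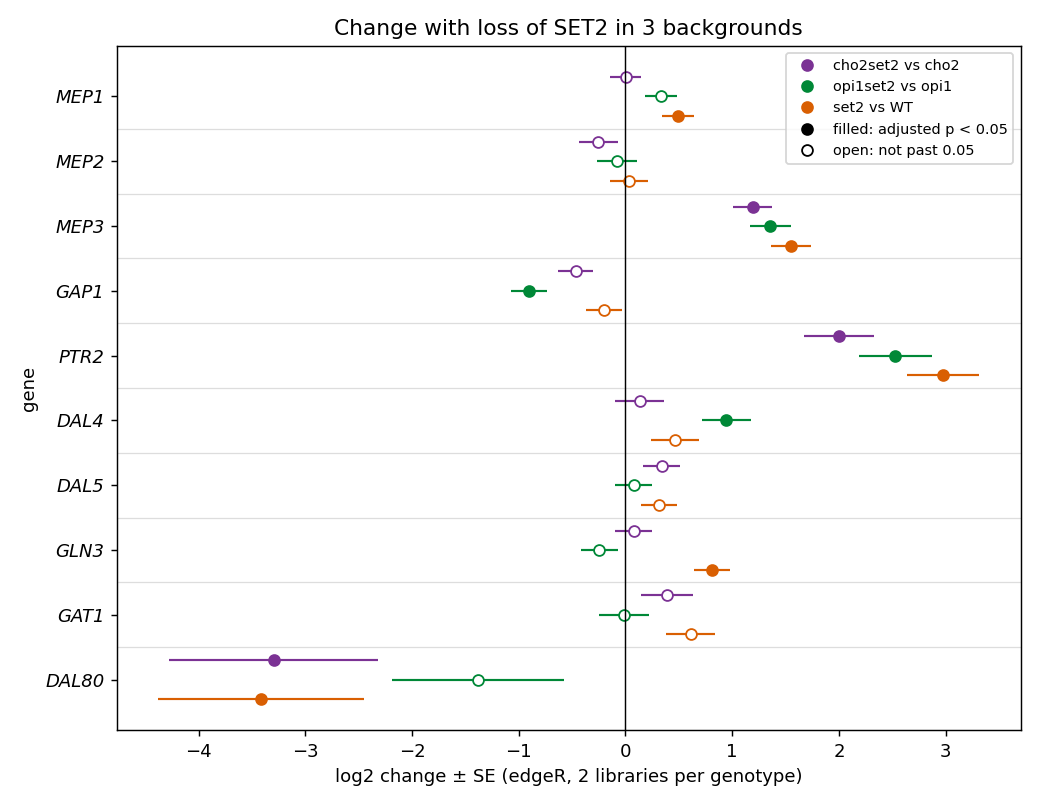
Log2 change with loss of SET2 for each gene (rows) in the cho2, opi1 and WT backgrounds, with bars for the SE of the edgeR estimate and filled points for calls. PTR2 and MEP3 are filled on the positive side in all 3 backgrounds, and GLN3 is filled only in set2 against WT.

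With SET2 present, loss of a lipid gene gave 1 call among the 10 in both comparisons together. In cho2 against WT 1 gene was called higher, GAP1, and the medians were 0.06 for the 10 and 0.00 for all genes. In opi1 against WT edgeR called 0 of the 10, against 17.7% of all genes (8.94% higher and 8.77% lower), with medians of -0.19 and -0.01. DESeq2 also called 0, while 3 had an unadjusted p under 0.05 by edgeR. With limma on log2(FPKM + 1) 1 was called (MEP1, lower), and the median of all genes was also shifted downwards there. The log2 changes nearest the threshold there were 0.45 ± 0.17 for GAP1 (adjusted p = 0.0745, past the threshold when either cho2 library was left out), -0.36 ± 0.15 for MEP1 (adjusted p = 0.121) and 0.40 ± 0.17 for GLN3 (adjusted p = 0.131).

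In strains without SET2, loss of CHO2 or OPI1 went with lower GLN3. In cho2set2 against set2, 1 of the 10 was called higher, GAP1, and 1 lower, GLN3, against 4.01% and 3.88% of all genes, with medians of -0.35 and 0.01. Without the library labelled cho2set2 replicate 1 edgeR called 0 of the 10, with 4 at an unadjusted p under 0.05, against 1.22% of all genes higher and 1.67% lower. GLN3 fell by 0.65 ± 0.17 on the log2 scale (adjusted p = 0.0281), against -0.50 (adjusted p = 0.286) when the library labelled cho2set2 replicate 1 was left out and -0.48 (adjusted p = 0.343) without set2 replicate 1. GAP1 rose by 0.68 ± 0.17 (adjusted p = 0.0212), against 0.58 (adjusted p = 0.201) when the library labelled cho2set2 replicate 1 was left out, 0.80 (adjusted p = 0.0721) without set2 replicate 1 and 0.56 (adjusted p = 0.140) without set2 replicate 2. In opi1set2 against set2, 0 were called higher and 2 lower, GLN3 and MEP1, against 13.5% and 12.3% of all genes, with medians of -0.37 and -0.02. GLN3 fell by 0.66 ± 0.17 (adjusted p = 0.0109), not past the threshold without set2 replicate 1 (-0.49, adjusted p = 0.132) or opi1set2 replicate 2 (-0.46, adjusted p = 0.115). MEP1 fell by 0.52 ± 0.15 (adjusted p = 0.0189), with -0.26 (adjusted p = 0.281) without set2 replicate 1 and -0.44 (adjusted p = 0.116) without opi1set2 replicate 2. These 2 comparisons share the set2 libraries, and set2 replicate 1 had the highest GLN3 and MEP1 CPM of all 12.

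**Figure D5:**
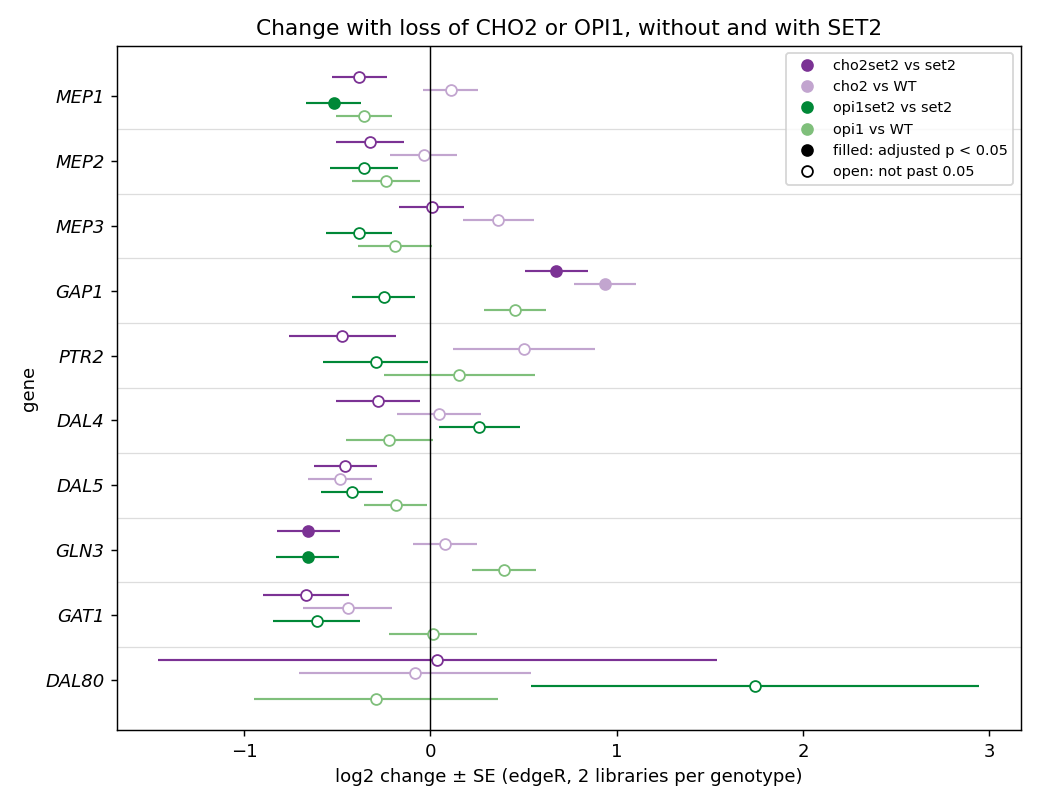
Log2 change with loss of CHO2 or OPI1 for each gene (rows), without SET2 (cho2set2 against set2, opi1set2 against set2) and with SET2 (cho2 against WT, opi1 against WT); bars are the SE of the edgeR estimate and filled points are calls. GAP1 is filled and positive with CHO2 loss in both settings, and GLN3 is filled and negative with either loss in strains without SET2.

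Other targets of nitrogen catabolite repression were examined as a list of 23 enzymes and permeases, of which 20 passed the filter. With SET2 loss, 8 of the 20 were called higher and 3 lower in set2 against WT, against 18.5% and 15.9% of all genes. In cho2set2 against cho2, 5 were higher and 1 lower (5 and 2 without the library labelled cho2set2 replicate 1), against 11.3% and 5.58%. In opi1set2 against opi1, 8 were higher and 5 lower, against 23.5% and 20.8%. These shares are from the fit of all libraries, and with all libraries the lower counts in all 3 comparisons were near them. The list's median log2 changes were 0.06, 0.13 and 0.12 in these 3 comparisons, beside -0.01, 0.00 and 0.01 for all genes. Called higher in all 3 were DUR1,2, the urea amidolyase (log2 changes of 1.79 in set2 against WT, 1.58 in cho2set2 against cho2 and 1.9 in opi1set2 against opi1), OPT2, an oligopeptide transporter family member (1.38, 1.44 and 1.77 in the same order), CAR1, the arginase (1.22, 1.30 and 0.91) and DUR3, the urea permease (1.08, 0.79 and 0.97). Of all tested genes, 8.43% were called higher in all 3 comparisons. The value in cho2set2 against cho2 without the library labelled cho2set2 replicate 1 was 1.79 for DUR1,2, 1.56 for OPT2, 1.32 for CAR1 and 0.84 for DUR3. AGP1, an amino acid permease driven by the SPS sensor, was called higher in set2 against WT (1.83 ± 0.35, with 2.84 without WT replicate 1 and 1.24 without WT replicate 2) and in opi1set2 against opi1 (2.42 ± 0.38).

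DAL1, the allantoinase gene and the divergent neighbour of DAL4 825 bases away on chromosome IX, was lower with SET2 loss in all 3 backgrounds, as were 213 of all tested genes (3.24%). With 20 genes in the list, 1 such gene is near that share. DAL1 had 9.89 and 10.2 CPM in cho2set2, 8.68 and 6.86 in opi1set2 and 7.47 and 8.44 in set2, against 19.9 and 20.3 in cho2, 25.5 and 20.3 in opi1 and 19.3 and 19.2 in WT. The 2 sets of genotypes did not overlap, and the share of all genes without such overlap was not counted. The log2 change was -1.0 ± 0.21 in cho2set2 against cho2 (-0.97 without the library labelled cho2set2 replicate 1), -1.55 ± 0.22 in opi1set2 against opi1 and -1.27 ± 0.21 in set2 against WT. The genes beyond DAL4 in the same cluster had log2 changes in opi1set2 against opi1 of 0.56 ± 0.18 for DAL2, 0.65 ± 0.18 for DCG1, 0.57 ± 0.22 for DAL7 and -0.71 ± 0.20 for DAL3, and all 4 calls were lost without opi1 replicate 1. The calls of DAL2, DAL7 and DAL3 were also lost without at least 1 further library.

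With loss of a lipid gene, edgeR called 0 of the 20 other targets in cho2 against WT, against 1.72% of all genes. With 20 genes, 0 calls is near that share. DESeq2 called 2 and limma 0, and 3 had an unadjusted p under 0.05 by edgeR. In opi1 against WT 1 was higher and 4 lower, against 8.94% and 8.77% of all genes. The lower genes were GLN1, glutamine synthetase (-0.80 ± 0.16, adjusted p = 0.00286), which was not called without opi1 replicate 2, AGP1 (-1.67 ± 0.38), DAL2 (-0.67 ± 0.18) and DCG1 (-0.56 ± 0.18). The 2 WT libraries were far apart in AGP1, at 94.7 and 31.3 CPM. Without WT replicate 1 its log2 change was -0.68 in opi1 against WT and not called, and without WT replicate 2 it was -2.27. The AGP1 call was also lost without opi1 replicate 2. The DAL2 call was lost in 3 of the 12 fits with a library left out and the DCG1 call in 10. In cho2set2 against set2 2 were higher and 0 lower, against 4.01% and 3.88% of all genes. They were CAR2, an enzyme of arginine breakdown (0.94 ± 0.21; 1.11 without the library labelled cho2set2 replicate 1), and GDH2, the glutamate dehydrogenase that releases ammonium (0.82 ± 0.18; 0.91 without that library). The CAR2 call was lost without set2 replicate 2 or cho2set2 replicate 2, and the GDH2 call without either of these or set2 replicate 1. In opi1set2 against set2 1 was higher and 4 lower, against 13.5% and 12.3%. The higher gene was UGA2 of GABA breakdown (0.72 ± 0.13), and the 3 lower genes with the largest changes were AGP1 (-1.09 ± 0.34), GDH2 (-0.78 ± 0.18) and PUT4, the proline permease (-0.77 ± 0.19), with these 3 calls lost in 1 to 3 of the 12 fits. PUT4 was also the gene of this list called for the OPI1 interaction (-1.17 ± 0.27), against 360 of all 6580 genes called in either direction. With 20 genes, 1 call is near that share, and the PUT4 call was lost in 5 of the 12 fits with a library left out.

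Among 18 regulators of the pathway and of TORC1, 8 were called higher and 3 lower in set2 against WT (18.5% and 15.9% of all genes), 4 and 0 in cho2set2 against cho2 (11.3% and 5.58%; 5 and 0 without the library labelled cho2set2 replicate 1), and 5 and 5 in opi1set2 against opi1 (23.5% and 20.8%). The lower counts in set2 against WT and in opi1set2 against opi1, like the higher count in opi1set2 against opi1, were near those shares. These shares are from the fit of all libraries. The median log2 changes of the 18 regulators in these comparisons were 0.13, 0.04 and -0.07. TOR2, DAL81, NPR3 and KOG1 were called higher in all 3 comparisons, as were 8.43% of all tested genes. TOR2, a TOR kinase, had 218 and 279 CPM in cho2set2, 194 and 176 in opi1set2 and 235 and 226 in set2, against 89.5 and 89.3 in cho2, 88.5 and 87.1 in opi1 and 85.8 and 81.7 in WT. Its log2 change was 1.47 ± 0.13 in cho2set2 against cho2 (1.64 without the library labelled cho2set2 replicate 1), 1.08 ± 0.13 in opi1set2 against opi1 and 1.46 ± 0.13 in set2 against WT. DAL81, an activator of allantoin and GABA catabolic genes, changed by 1.30 ± 0.23 (1.58 without that library), 1.17 ± 0.24 and 1.61 ± 0.23 in the same comparisons. NPR3, a subunit of the complex that inhibits TORC1, changed by 0.72 ± 0.13 (0.83 without that library), 0.77 and 0.91 ± 0.13. KOG1, a subunit of TORC1, changed by 0.66 ± 0.16 (0.87 without that library), 0.81 ± 0.16 and 0.84 ± 0.16, and its call in cho2set2 against cho2 was lost without cho2 replicate 1, cho2 replicate 2 or cho2set2 replicate 2. GZF3, the fourth GATA factor and a repressor like Dal80, was called higher in opi1set2 against opi1 (0.79 ± 0.18) and in set2 against WT (0.81). The 5 regulators called lower in opi1set2 against opi1 were PUT3, the activator of proline breakdown genes (-0.71), TIP41, which binds Tap42 (-0.69), TCO89, a TORC1 subunit (-0.63), NPR2, the partner of NPR3 (-0.53), and SIT4, a phosphatase regulated through Tap42 (-0.34). The SIT4 call was lost in 7 of the 12 fits with a library left out and the NPR2 call in 1. The 3 called lower in set2 against WT were PAR32, whose product inhibits Mep1 and Mep3 (-0.56), DAL82, an activator of allantoin genes (-0.46), and TIP41 (-0.41). Each of these 3 calls was lost in 3 or 4 of the 12 fits.

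With loss of a lipid gene, the regulators called in opi1 against WT were PUT3, higher (0.67 ± 0.13), and PAR32, lower (-0.55 ± 0.17; lost in 5 of the 12 fits), against 8.94% and 8.77% of all genes. In cho2set2 against set2 the regulator called was UGA3, the activator of GABA genes, which was lower (-0.42 ± 0.12) and not called when the library labelled cho2set2 replicate 1 was left out (-0.35, adjusted p = 0.285). With 18 regulators, 1 such call is near the 3.88% of all genes called lower in cho2set2 against set2. In opi1set2 against set2 the 4 called lower, against 12.3% of all genes, were NPR1, a kinase that acts on permeases (-0.50 ± 0.14), TCO89 (-0.46 ± 0.15), UGA3 (-0.44 ± 0.12) and TIP41 (-0.38 ± 0.13). These calls were lost in 2 to 7 of the 12 fits. NPR1 was the regulator called for the OPI1 interaction (-0.78 ± 0.20), against 360 of all 6580 genes called in either direction. With 18 regulators, 1 call is near that share, and the NPR1 call held in 3 of the 12 fits.

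Of 9 genes of the SPS sensor, the Cup9 branch and peptide uptake, 3 were called higher and 0 lower in set2 against WT (18.5% and 15.9% of all genes), 1 and 0 in cho2set2 against cho2 with or without the library labelled cho2set2 replicate 1 (11.3% and 5.58%), and 1 and 1 in opi1set2 against opi1 (23.5% and 20.8%). These shares are from the fit of all libraries, where the 1 higher of 9 in cho2set2 against cho2 was near the share of all genes. Their median log2 changes there were 0.16, 0.04 and 0.13. SSY1, the sensor itself, was the gene called higher in all 3, as were 8.43% of all tested genes. With 9 genes, 1 such gene is near that share. The log2 changes of SSY1 were 0.93 ± 0.14 in cho2set2 against cho2 (1.12 without the library labelled cho2set2 replicate 1), 1.03 ± 0.14 in opi1set2 against opi1 and 1.09 ± 0.14 in set2 against WT. OPT1, a transporter of glutathione and oligopeptides, and PTR3, a component of the sensor complex, were higher in set2 against WT (0.93 ± 0.19 and 0.49 ± 0.16) and lower in opi1set2 against set2 (-1.22 ± 0.20 and -1.09 ± 0.16). The PTR3 call in set2 against WT was lost without WT replicate 1, WT replicate 2 or set2 replicate 1. In cho2set2 against set2 OPT1 (-0.97 ± 0.19) and PTR3 (-0.86 ± 0.16) were the 2 genes called lower, against 3.88% of all genes. Without the library labelled cho2set2 replicate 1 edgeR called 0 of the 9, with 3 at an unadjusted p under 0.05. CUP9, the repressor of PTR2, was called in 1 comparison, lower in opi1set2 against set2 (-0.44 ± 0.12), which was lost without set2 replicate 1 or opi1set2 replicate 2. RAD6, the partner of Ubr1 in the breakdown of Cup9, was called higher there (0.79 ± 0.17; lost without opi1set2 replicate 2). STP1 was called lower in opi1set2 against opi1 (-0.45 ± 0.16; lost in 3 of the 12 fits) and STP2 higher in opi1 against WT (0.40 ± 0.13; lost in 8).

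Of 6 genes of permease sorting and ubiquitination, 1 was called higher and 0 lower in set2 against WT and in cho2set2 against cho2 (with or without the library labelled cho2set2 replicate 1), and 1 and 1 in opi1set2 against opi1. With 6 genes, 1 call is near the shares of all genes in the fit of all libraries, 18.5%, 11.3% and 23.5% higher in these 3 comparisons. BUL2, an adaptor of the ubiquitin ligase Rsp5 that acts on Gap1, was called higher in opi1set2 against opi1 (1.00 ± 0.16) and in cho2set2 against cho2 (0.76 ± 0.16; 0.85 without the library labelled cho2set2 replicate 1). The BUL2 call in cho2set2 against cho2 was lost without cho2 replicate 2. RSP5 itself was called lower in opi1set2 against opi1 (-0.47 ± 0.13; lost without opi1set2 replicate 2). LST4, needed for sorting of Gap1, was called higher in set2 against WT (0.33 ± 0.11), and SHR3, which packages amino acid permeases for export from the endoplasmic reticulum, in opi1set2 against set2 (0.37 ± 0.12). The LST4 call was lost in 6 of the 12 fits and the SHR3 call in 8.

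The genes whose log2 CPM over the 12 libraries was most like that of a member, among 5454 genes with a mean of at least 10 CPM, were FLO10 for PTR2 (Pearson r = 0.981), IMD2 for MEP3 (r = 0.977), HEM1 for MEP1 (r = 0.937) and RPT5 for GAP1 (r = 0.915). FLO10 is a flocculin, IMD2 an enzyme of GTP synthesis, HEM1 the first enzyme of heme synthesis and RPT5 a proteasome ATPase. For GLN3 it was GAL4 (r = 0.903), for GAT1 CMR1 (r = 0.894), for DAL5 MDL1 (r = 0.899), for DAL4 AMN1 (r = 0.878) and for MEP2 MCY1 (r = 0.881). For PTR2, FLO8 and SLD3 also had r = 0.981, so FLO10 was not set apart. For MEP3, BOI1 and RSM22 followed IMD2 at 0.971 and 0.97. The points share the 6 genotypes and the same libraries, so each r is a description of these 12 libraries. DAL80, at this depth of counts, is left out. Among the members PTR2 and MEP3 had r = 0.953, GLN3 and GAT1 0.809, and MEP2 and MEP3 -0.12.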

How the data were processed

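The deposited table gives, for 7126 genes, raw counts in whole numbers for every library and FPKM scaled by gene size, both made by the authors. The submitters' processing notes name HTSeq 0.6.1, HISAT2 2.0.1, cutadapt 1.9.1 and the build sacCer3, with no roles or settings. Total RNA was used, per the labels' protocols. The test covered genes reaching an FPKM of 1 in 2 or more of 12 libraries (6583, or 6580 without SET2, CHO2 and OPI1). The quasi-likelihood test of edgeR 4.0.16 (R 4.3.3) was fitted to all 12 libraries with TMM factors of 0.897 to 1.077, 1 mean per genotype and 6 residual degrees of freedom. It was 2-sided with Benjamini-Hochberg adjustment over all genes and a threshold of 0.05. There were 7 comparisons of genotypes and 2 interaction terms. The SE is the size of the log2 change over the square root of F. Comparisons with a common genotype share its libraries.

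The members and pathway lists were chosen with earlier results of these data known. All 10 members are named in full; from the lists, up to 4 called genes per comparison with the largest changes are named, and DCG1, DAL2, DAL7, DAL3, DUR3, GZF3, CAR1, NPR2, NPR3, PUT3, TIP41, TCO89, SIT4, PAR32 and DAL82 where outside that rule were chosen after their values were seen. Alternatives were median-of-ratios scaling, no filter, DESeq2 1.42.0, limma 3.58.1 on log2(FPKM + 1), a replicate block and each library left out, where the lone library of a genotype is assumed to vary like the other genotypes. The script was tested on simulated data. Replicate numbers did not pair libraries (r of -0.297 to 0.302 over 15 pairs of genotypes), and no library was a copy of another. Sequences came from the R64 genome. A promoter table had been planned, and the windows were read from the genome instead. Of 5988 protein-coding genes, 5980 had the same coordinates in both. Figures were drawn with matplotlib 3.10.9.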

Additional observations from a re-analysis of the deposited data

Results flagged for a closer look

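A result for GLN3 stood out by a test of a difference between backgrounds. The log2 change of GLN3 with SET2 loss was -0.24 ± 0.17 in opi1set2 against opi1 and 0.81 ± 0.17 in set2 against WT, and the difference between them was -1.06 ± 0.24 (edgeR interaction term, adjusted p = 0.0267). It came from 2 libraries per genotype, and limma on log2(FPKM + 1) gave -0.90 (adjusted p = 0.0721). The range of the difference with each library left out was -1.29 to -0.86, and the call did not hold in every one of those fits. For that term 360 of all 6580 genes were called in either direction. With 10 genes, 1 call is near that share.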

How the results depend on the processing

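No call reversed its direction under any alternative. There were 18 calls of the 10 genes. The tallies here include the 2 calls of DAL80, which entered the test through the groups where it is high and are only described. Of the 18 calls, 18 held with median-of-ratios scaling, 18 with no filter, 17 with DESeq2 and 15 with limma. With the replicate block 18 held and GAT1 was also called in set2 against WT (0.60, adjusted p = 0.0403) and opi1set2 against set2 (-0.63, adjusted p = 0.0445); it changed no other call. DESeq2 gave no adjusted p for DAL80 in cho2set2 against cho2, and limma gave 0.0858. With limma the number of the 10 called was 1 in opi1 against WT (0 with edgeR), 2 in cho2set2 against cho2 (3), 5 in opi1set2 against opi1 (4, with MEP1 gained), 1 in cho2set2 against set2 (2) and 0 for the OPI1 interaction (1), and the cause was not tested. With 1 library left out in turn, 11 to 18 calls held, 9 in every fit, and the number of the 10 called ran from 3 to 6 in set2 against WT, 0 to 1 in cho2 against WT, 0 to 1 in opi1 against WT, 2 to 4 in cho2set2 against cho2, 4 to 5 in opi1set2 against opi1, 0 to 3 in cho2set2 against set2, 0 to 3 in opi1set2 against set2 and 0 to 2 for the OPI1 interaction. Without the library labelled cho2set2 replicate 1, a setting added after the data were seen, the called pathway regulators in cho2set2 against set2 went to 0 and the SPS genes to 0. Over all genes the number called was 183 with DESeq2 in cho2 against WT (113 with edgeR; 30.6% and 14.2% of them higher), 133 with DESeq2 and 18 with limma for the CHO2 interaction (60 with edgeR; 56.4% with DESeq2 and 40.0% higher), and 629 and 189 for the OPI1 interaction (360). Deposited FPKM were not TMM-scaled, and whether that caused the following shifts with limma was not tested. The median log2 change of all genes shifted by -0.14 in opi1 against WT (30.0% of calls higher, 50.5% with edgeR). It shifted by 0.19 in opi1set2 against opi1 (72.2%, 53.1%) and by 0.15 for the OPI1 interaction (73.0%, 51.9%). In cho2set2 against set2 36.1% of calls were higher with limma, against 50.9% with edgeR. With 1 library left out the number over all genes ran from 1272 to 2567 in set2 against WT, 64 to 160 in cho2 against WT, 448 to 1383 in opi1 against WT, 492 to 1296 in cho2set2 against cho2, 190 to 715 in cho2set2 against set2, 761 to 2167 in opi1set2 against set2, 9 to 107 for the CHO2 interaction and 44 to 1144 for the OPI1 interaction. Depth limits DAL80 most, with at most 15 counts per library.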
